A study of Mus musculus with 2 samples.

Results

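The genes Irf9, Stat2, Rnf213, Parp14, Samd9l, Rtp4, Sp100, Trim30a and Ifi27, all known to be induced by interferon, were followed across the cell classes of the mouse anterior hypothalamus, which here includes the preoptic area. These are 9 of 32289 counted features, found by gene symbol, and were chosen with their levels in these libraries already known. Ratios between the ages are therefore a description, and no test was made on them. Single nuclei had been profiled from male mice aged 22 months (the aged library) and 3 months (the young library, from mice called wild-type in the labels' protocols). Each library pooled tissue of 5 mice, and no strain, allele or treatment is named in the labels. Neither age has a second library, so age, mouse pool and library cannot be told apart, and every 95% interval covers counting error only.

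Interferons are secreted when cells sense viral or misplaced nucleic acid. Type I interferon binds the receptor made of Ifnar1 and Ifnar2, and the kinases Jak1 and Tyk2 then activate Stat2, which joins Irf9 in the complex ISGF3. ISGF3 binds interferon-stimulated response elements and switches on a wide set of interferon-stimulated genes, and microglia, the resident macrophages of the brain, are known for such a programme in ageing and disease. Among the 9 genes, Irf9 and Stat2 are a DNA-binding and an activating part of ISGF3. Rnf213 is a large ubiquitin ligase that coats intracellular bacteria, Parp14 an ADP-ribosyltransferase, and Samd9l a restriction factor that limits translation during poxvirus infection. Sp100 is a component of nuclear bodies, Trim30a a tripartite-motif protein that dampens Toll-like receptor signalling, Rtp4 a membrane protein that restrains interferon responses and flaviviruses, and Ifi27 a small mitochondrial and nuclear-envelope protein.

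In the GENCODE M21 annotation of GRCm38, Irf9 lies on the plus strand at chr14:55603571-55610030, Stat2 on the plus strand at chr10:128270559-128292849 and Rnf213 on the plus strand at chr11:119393100-119487418. Parp14 lies on the minus strand at chr16:35832874-35871544, Samd9l on the minus strand at chr6:3372257-3399572 and Rtp4 on the plus strand at chr16:23520291-23614222. Sp100 is on the plus strand at chr1:85649988-85709998, Trim30a on the minus strand at chr7:104409025-104465193 and Ifi27 on the plus strand at chr12:103434211-103440239. Rnf213 shares 38631 bases with A930037H05Rik on the opposite strand, Rtp4 shares 39791 bases with Gm45338 on the same strand, and Irf9 shares 123 bases with Rnf31 on the same strand. No source used here says whether counting used strand. The counts of these 3 genes, and those of Trim30a and Sp100, which have close relatives in multigene families, carry some uncertainty about their source.

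Promoter windows of 300 bases, from 250 before to 50 after a transcription start, were listed for 6 of the 9 genes by RefSeq on GRCm38.p6. The letters GAAA, then 2 bases of any kind, then GAAA are the core of the interferon-stimulated response element. On either strand they occurred in windows of 2 of the 6 genes, Trim30a and Stat2. Of all 27025 genes with such windows 3.99% held them, as did 3.44% of all 32851 windows. The letters TTC, then 3 bases of any kind, then GAA mark gamma-activated sites. These occurred in windows of 0 of the 6 genes, beside 9.55% of all genes and 8.30% of all windows. The windows that hold the first motif are shown because they hold the letters of the element known for ISGF3 binding, in 1 effector gene and in 1 subunit of that complex. They are printed 5' to 3' on the gene's strand, Trim30a from chr7:104465144-104465443 (minus strand) and Stat2 from chr10:128270248-128270547 (plus strand), with the match in capitals.
Trim30a: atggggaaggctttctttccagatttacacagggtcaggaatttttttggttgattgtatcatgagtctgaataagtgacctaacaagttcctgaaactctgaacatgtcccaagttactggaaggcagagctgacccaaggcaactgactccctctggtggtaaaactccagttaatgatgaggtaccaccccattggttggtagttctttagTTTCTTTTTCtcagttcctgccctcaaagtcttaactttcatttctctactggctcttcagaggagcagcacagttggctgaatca
Stat2: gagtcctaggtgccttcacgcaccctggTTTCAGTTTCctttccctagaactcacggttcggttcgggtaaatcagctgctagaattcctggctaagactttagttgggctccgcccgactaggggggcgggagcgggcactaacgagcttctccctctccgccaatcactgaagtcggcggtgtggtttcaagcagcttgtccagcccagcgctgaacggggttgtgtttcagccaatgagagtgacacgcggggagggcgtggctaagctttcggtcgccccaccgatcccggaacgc
The match began 36 bases before the start in Trim30a and 222 bases before it in Stat2, each as the reverse complement of those letters on the gene's strand. A second Trim30a window, from another start, held a match as well. A match describes letters and not binding.

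After removal of barcodes with fewer than 500 genes, those with over 5% mitochondrial counts and those marked as doublets, 8229 aged and 9948 young nuclei remained, and 25 barcodes occurred in both libraries before doublets were removed. They held 411 aged and 477 young microglia, 156 and 387 astrocytes, 1881 and 2134 oligodendrocytes, 183 and 253 oligodendrocyte precursors, 49 and 62 vascular cells and 5002 and 6427 neurons, each class named by its markers. The median number of unique molecular identifiers (UMIs, counts of single RNA molecules) per nucleus was higher in the aged library in each of these 6 classes, for example 2136 against 1806 in microglia. Levels are given as CPM, the counts-per-million share of the UMIs of the class. A gene counts as higher or lower in the aged library where its CPM ratio was at least 1.5 in that direction and both libraries together held 10 or more of its UMIs. The same 9 genes were also measured in 40000 near-empty droplets per library, where free RNA gives a background. A further cluster of 516 aged and 89 young barcodes with a median of 687 UMIs, led by Oxt, Avp and ribosomal genes, stayed unnamed and was left out of the class values.

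Among the 6 classes, the 9 genes together were highest in microglia, at 716 CPM in the aged and 417 CPM in the young library, and lowest in neurons, at 49.98 CPM in the aged and 49.4 CPM in the young library. Vascular cells followed microglia with 557 CPM in the aged and 321 CPM in the young library, then precursors with 320 and 134 CPM, astrocytes with 272 and 131 CPM and oligodendrocytes with 134 and 111 CPM. Without Ifi27, which free RNA also carries, the other 8 genes were at 184 CPM in aged and 86.1 CPM in young astrocytes, above precursors with 174 and 63.5 CPM, and oligodendrocytes with 48.2 and 51.2 CPM were close to neurons with 39.9 and 42.7 CPM. The endothelial nuclei within the vascular class stood at 773 CPM (21 aged nuclei) and 691 CPM (24 young nuclei). Trim30a and Parp14 were highest in microglia in both libraries. For Trim30a the interval of microglia lay above that of vascular cells, the next class, in both libraries, and for Parp14 the microglial and vascular intervals overlapped. Sp100 was highest in vascular cells and microglia, whose intervals lay above those of the other 4 classes in both libraries. In oligodendrocytes, 0 of 1881 aged and 0 of 2134 young nuclei held a Sp100 UMI, which allows a share of up to 0.159% and 0.141%. In microglia, whose median depth was close to the oligodendrocyte medians of 2023 aged and 1891 young UMIs, 66 of 411 aged nuclei (16.1%) and 19 of 477 young nuclei (3.98%) held Sp100. Samd9l was highest in vascular cells and precursors in both libraries, with overlapping intervals between these classes. Down the order of classes, neighbouring intervals kept overlapping through microglia and astrocytes, and the next class, neurons, lay apart. Samd9l stood at 0.489 CPM in aged and 0 in young oligodendrocytes. Stat2 was found in all 6 classes. Its class levels ran from 18.0 to 70.8 CPM in the aged library and from 19.4 to 34.1 CPM in the young library, and neighbours in the order of classes had overlapping intervals, while in the aged library the intervals of vascular cells and microglia lay wholly above that of neurons.

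**Figure D1:**
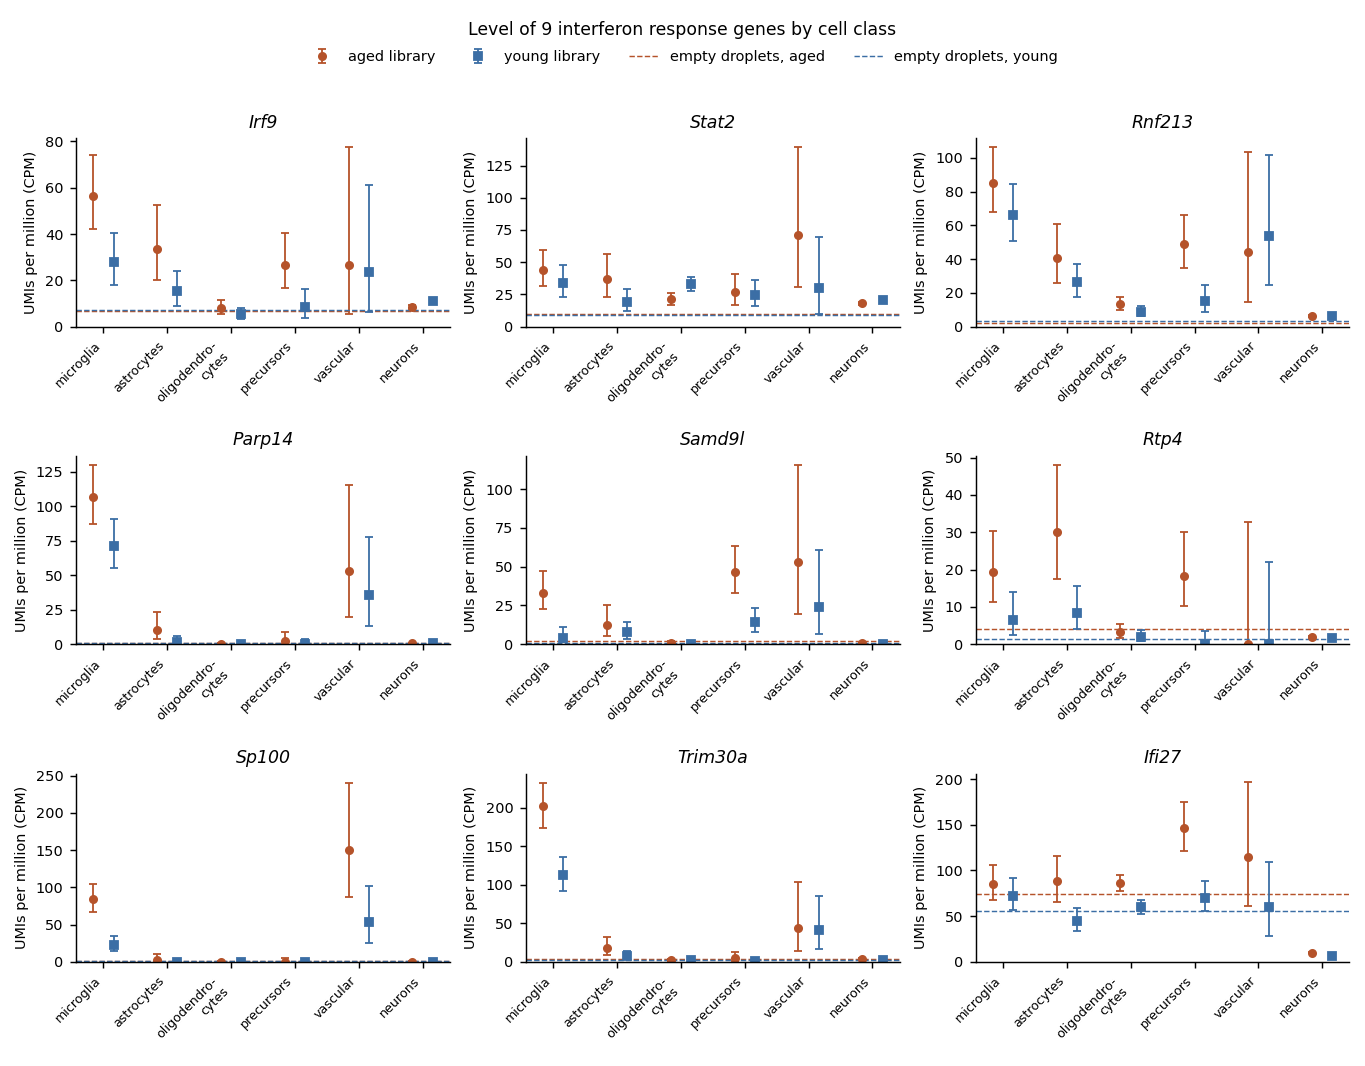
Level of each of the 9 genes (CPM, linear axis from 0) in 6 cell classes of the aged library (circles, left) and the young library (squares, right), with exact Poisson 95% intervals for counting error and dashed lines for near-empty droplets. Trim30a and Parp14 are highest in microglia in both libraries, and Sp100 is highest in vascular cells, followed by microglia. The Ifi27 level of most glia lies close to the droplet lines at 74.7 CPM in the aged and 55.1 CPM in the young library.

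Ifi27 differed from the other 8 genes in its background. Near-empty droplets held Ifi27 at 74.7 CPM in the aged and 55.1 CPM in the young library, close to its level in microglia (85.4 CPM aged and 72.6 CPM young) and in oligodendrocytes (85.9 CPM aged and 59.8 CPM young). In neurons, which have several times more UMIs per nucleus, it lay far below the droplets at 10.1 CPM in the aged and 6.72 CPM in the young library. In aged precursors it was 146 CPM (121 to 175), above the droplets. The other genes were much scarcer in droplets, from 0.916 CPM for Sp100 and Parp14 to 9.85 CPM for Stat2 in the aged library.

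In microglia, 5 of the 9 genes were higher in the aged library and 0 were lower, where 15.9% of all 12357 genes measured in this class were higher and 9.87% lower. As the genes were chosen on this contrast, nothing is read from that count. Samd9l had 31 UMIs in 21 aged nuclei and 4 UMIs in 3 young nuclei, that is 33.1 CPM against 4.27 CPM, a ratio of 7.75 (2.74 to 30.2). Sp100 had 79 aged and 21 young UMIs, 84.3 CPM against 22.4 CPM, a ratio of 3.76 (2.30 to 6.41). Their intervals did not overlap between the libraries. For Rtp4 there were 18 aged and 6 young UMIs, 19.2 CPM against 6.402 CPM (ratio 3.00, 1.14 to 9.24), beside 4.20 CPM in aged and 1.44 CPM in young droplets. Irf9, the DNA-binding subunit of ISGF3, had 53 aged and 26 young UMIs, 56.6 CPM against 27.7 CPM (ratio 2.04, 1.253 to 3.40). Its partner Stat2 had 41 aged and 32 young UMIs, with a ratio of 1.28 and an interval of 0.788 to 2.10 that includes 1. Trim30a, the most abundant of the 9 in this class by UMIs, had 189 aged and 105 young UMIs, 202 CPM against 112 CPM (ratio 1.80, 1.41 to 2.31). Parp14 stood just outside the threshold, with 100 aged and 67 young UMIs and a ratio of 1.49 (1.09 to 2.07). The ratio of Rnf213 was 1.29 (0.915 to 1.83) and that of Ifi27 1.18 (0.841 to 1.65).

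Oligodendrocyte precursors, the dividing cells that give rise to oligodendrocytes, also had most of the genes higher in the aged library. Of the 6 genes with 10 or more UMIs, 5 were higher in the aged library and 0 lower, where 13.2% of 12130 genes in this class were higher and 12.7% lower. Rnf213 had 40 aged and 16 young UMIs, 48.7 CPM against 15.2 CPM, a ratio of 3.21 (1.76 to 6.14). Samd9l had 38 aged and 15 young UMIs, 46.3 CPM against 14.2 CPM, a ratio of 3.25 (1.75 to 6.37). In microglia the ratio was 1.29 for Rnf213 and 7.75 for Samd9l. Irf9 had 22 aged and 9 young UMIs (ratio 3.14, 1.39 to 7.74), while Stat2 had 22 aged and 26 young UMIs (ratio 1.09, 0.587 to 1.99). Rtp4 had 15 UMIs in 11 aged nuclei and 0 in 253 young nuclei. With the young count set to the floor of 3 counts its ratio was 6.42, which leaves out counting error in the aged count. The absence of Rtp4 from the young nuclei allows a share of up to 1.19% of them. Ifi27 had 120 aged and 74 young UMIs, 146 CPM against 70.2 CPM (ratio 2.08, 1.55 to 2.82). Trim30a had 4 aged UMIs and 1 young UMI, Parp14 2 and 0, and Sp100 0 in both libraries. A finer clustering placed 2 aged and 20 young nuclei of this class in a cluster of committed precursors, which are turning into oligodendrocytes. Without them the same 5 genes were higher, where 13.6% of genes were higher and 11.8% lower, and the summed ratio of the 9 genes was 2.50 (2.003 to 3.13), against 2.39 (1.94 to 2.96) with them.

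In astrocytes, 7 genes reached 10 UMIs and 7 were higher in the aged library, where 16.7% of 11919 genes were higher and 12.2% lower. Counts were small. Rtp4 had 17 aged and 10 young UMIs, 30 CPM against 8.44 CPM (ratio 3.55, 1.54 to 8.68). Irf9 and Stat2 were both higher, Irf9 with 19 aged and 18 young UMIs (33.5 CPM against 15.2 CPM, ratio 2.21, 1.10 to 4.46) and Stat2 with 21 aged and 23 young UMIs (37.1 CPM against 19.4 CPM, ratio 1.91). Ifi27 had 50 aged and 53 young UMIs, 88.2 CPM against 44.7 CPM (ratio 1.97, 1.31 to 2.96), levels that again lay near those of the droplets. The intervals of Rnf213 (ratio 1.55, 0.864 to 2.75), Samd9l (1.63, 0.515 to 4.91) and Trim30a (2.32, 0.848 to 6.46) included 1. Parp14, with 6 aged and 2 young UMIs, and Sp100, with 1 and 0, stayed under 10 UMIs. Summed over the 9 genes the ratio was 2.08 (1.65 to 2.61).

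**Figure D2:**
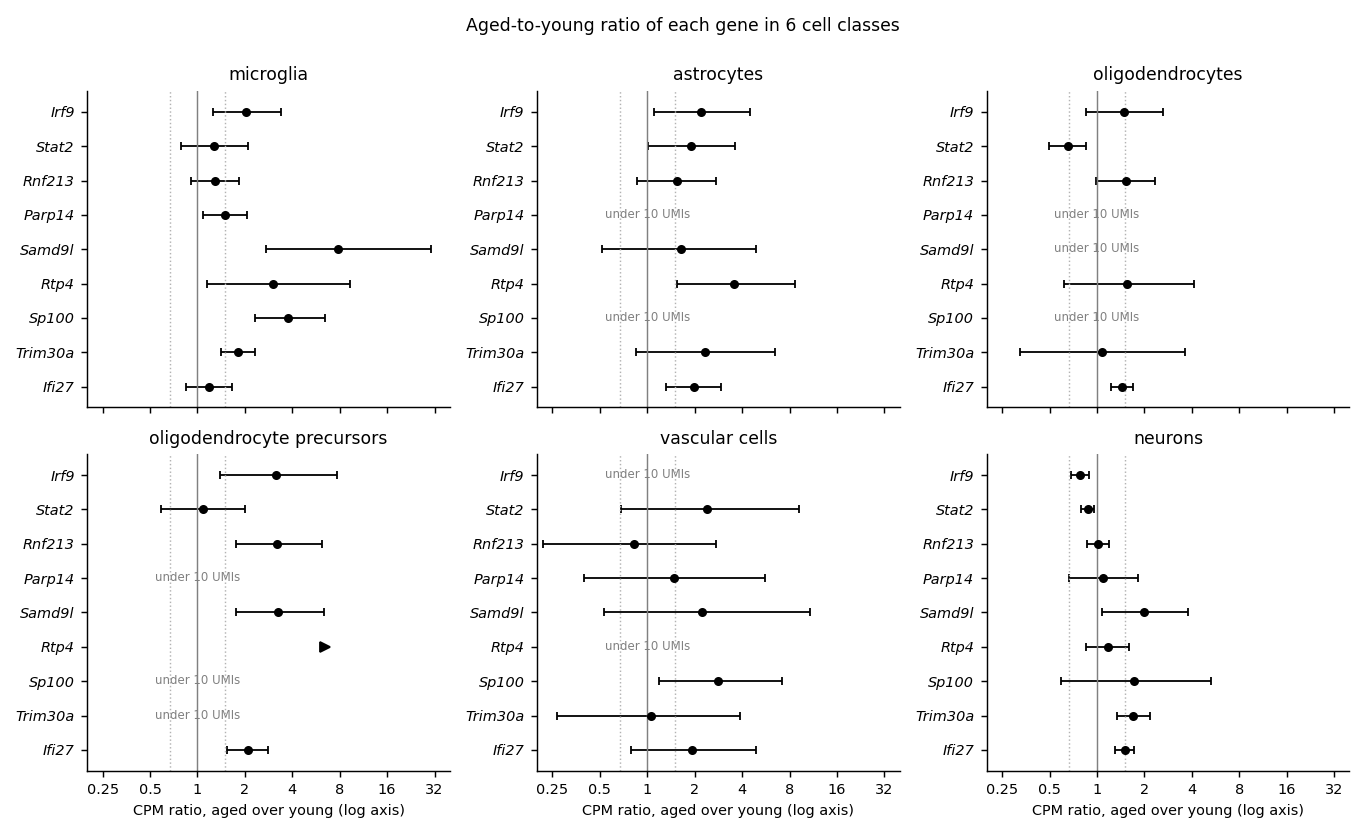
CPM ratio of the aged over the young library (log axis) for each gene in 6 cell classes, with exact conditional binomial 95% intervals for counting error, a solid line at 1 and dotted lines at the 1.5-fold threshold in each direction. The triangle for Rtp4 in precursors is the ratio of 6.42 against the floor of 3 counts, without counting error in the aged count. Irf9 lies right of 1 in microglia, astrocytes and precursors and left of 1 in neurons.

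In oligodendrocytes, the myelin-forming cells, few of the genes passed the threshold. Of 6 genes with 10 or more UMIs, 2 were higher in the aged library (Rnf213 with 55 aged and 39 young UMIs, and Rtp4 with 13 and 9) and 1 was lower, where 12.6% of 14507 genes were higher and 6.36% lower. The intervals of both higher genes included 1, at 0.988 to 2.35 and 0.614 to 4.12. Aged Rtp4 also lay below its aged droplet level of 4.20 CPM, so no expression is read from that level. Stat2 was the lower gene, with 87 UMIs in aged and 144 in young nuclei, 21.3 CPM against 32.8 CPM (ratio 0.650, 0.492 to 0.854). Ifi27 supplied most of the UMIs of the group, 351 aged and 263 young, with a ratio of 1.43 (1.22 to 1.69) beside a droplet level of 74.7 CPM in the aged and 55.1 CPM in the young library. Without Ifi27, the other 8 genes together stood at 48.2 CPM in aged and 51.2 CPM in young oligodendrocytes (ratio 0.941, 0.774 to 1.14). The class was made of 2 clusters, and the second, led by Enpp6, Anln and Apod, had a marker of committed precursors and no oligodendrocyte marker among its 10 leading genes, so the clusters were also read apart. In the first cluster (1554 aged and 1616 young nuclei) Stat2 had 69 aged and 104 young UMIs, a ratio of 0.654 (0.475 to 0.895). Rtp4 was the only higher gene there and Stat2 the only lower one, where 12.9% of genes were higher and 6.74% lower. Aged Rtp4 again lay below its aged droplet level in that cluster. In the second (327 aged and 518 young nuclei) Stat2 had 18 aged and 40 young UMIs, a ratio of 0.630 (0.340 to 1.12). Rnf213 and Irf9 were higher in that cluster, where 14.3% of genes were higher and 9.83% lower. At the finer clustering, the aged library held 119 and the young 954 nuclei of an oligodendrocyte cluster led by Ptgds, so the make-up of the class differed between the libraries and its part in these values was not tested.

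Vascular cells were few. Of 7 genes with 10 or more UMIs, 4 (Samd9l, Ifi27, Sp100 and Stat2) were higher in the aged library and 0 lower, where 24.3% of 6334 genes were higher and 22.9% lower. Sp100 had 17 aged and 9 young UMIs, 150 CPM against 53.6 CPM (ratio 2.81, 1.18 to 7.15), and 16 of the aged and 9 of the young UMIs came from endothelial nuclei, the cells that line vessels. In endothelial cells alone Sp100 was 281 CPM in the aged and 168 CPM in the young library (ratio 1.67, 0.696 to 4.30) and the only one past the threshold of 3 genes with 10 or more UMIs, where 26.0% of genes were higher and 22.8% lower. In mural cells, the contractile cells of vessel walls, Ifi27 was the only gene with 10 or more UMIs, 7 aged and 5 young. It was higher there, where 29.4% of genes were higher and 27.6% lower. Young Ifi27 lay below the young droplets at 55.1 CPM in mural cells and close to them over the whole vascular class. The intervals of Samd9l, Ifi27 and Stat2 included 1. The aged vascular nucleus with most UMIs of the group, 10, also held 261 UMIs from 10 of 11 neuron markers among 16162 UMIs in all. With the leading nucleus of each library left out, the ratio of Sp100 was 2.98, while Samd9l and Stat2 had fewer than 10 UMIs over both libraries. Rtp4 had 0 UMIs in 49 aged and 62 young nuclei, which allows a share of up to 6.12% and 4.84%.

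Neurons, which carried most of the UMIs of the group and were the most numerous and deepest class, had close summed levels: 2327 aged and 2756 young UMIs, 49.98 CPM against 49.4 CPM, a ratio of 1.01 (0.957 to 1.07). Without Ifi27 the other 8 genes were at 39.9 CPM against 42.7 CPM, a ratio of 0.934 (0.879 to 0.993). The genes differed among themselves. Of 9 genes, 4 were higher and 0 lower at the 1.5-fold threshold, where 6.48% of 21948 genes were higher and 9.52% lower. Trim30a had 168 aged and 119 young UMIs, 3.61 CPM against 2.13 CPM (ratio 1.69, 1.33 to 2.16). Samd9l had 30 aged and 18 young UMIs (ratio 1.997, 1.08 to 3.80), and 5 of the 30 came from 1 nucleus. Ifi27 stood just inside the threshold, with 470 aged and 375 young UMIs and a ratio of 1.501 (1.31 to 1.72). Sp100 had 10 aged and 7 young UMIs (ratio 1.71, 0.588 to 5.30). All 4 lay below the near-empty droplets in both libraries, where Trim30a was 4.12 CPM aged and 2.68 CPM young, Samd9l 1.83 and 1.03 CPM and Sp100 0.916 and 0.515 CPM, so these neuronal levels are at background and no expression is read from them. The part of free RNA in their ratios was not tested. Irf9 and Stat2 lay on the other side of 1 and above the droplets. Irf9 had 398 aged and 613 young UMIs, 8.55 CPM against 10.99 CPM (ratio 0.778, 0.684 to 0.884). Stat2 had 837 aged and 1151 young UMIs, 18.0 CPM against 20.6 CPM (ratio 0.871, 0.796 to 0.953). For Rnf213 (297 aged and 351 young UMIs, ratio 1.01), Rtp4 (84 and 86, ratio 1.17) and Parp14 (33 and 36, ratio 1.10) the interval included 1. Parp14 also lay below the droplets, which held it at 0.916 CPM aged and 1.13 CPM young. Aged Rtp4 lay below its droplet level of 4.20 CPM. No expression is read from these levels either. Droplets held Irf9 at 6.87 CPM aged and 7.11 CPM young, and Stat2 at 9.85 CPM aged and 8.66 CPM young.

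The signal in microglia was spread over many nuclei. At least 1 of the 9 genes was detected in 279 of 411 aged nuclei (67.9%) and 248 of 477 young nuclei (51.99%). At least 3 different genes were detected in 69 aged nuclei (16.8%) and 19 young nuclei (3.98%), and at least 4 in 25 aged (6.08%) and 2 young nuclei (0.419%). With every nucleus thinned to 1000 UMIs, which kept 407 aged and 463 young microglia, the shares with at least 1 gene were 47.2% aged and 32.2% young, and those with at least 2 genes 14.99% and 6.05%. The 5 microglia with most UMIs of the group held 9.99% of its UMIs in aged and 7.93% in young nuclei. Leaving them out gave a summed ratio of 1.69, against 1.72 with them. Samd9l was the exception, since 48.4% of its aged UMIs came from 5 nuclei and 6 of 31 from a single nucleus.

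At least 1 of the genes, Ifi27 and its background included, was found in 119 of 183 aged precursors (65.0%) and 90 of 253 young precursors (35.6%), or 26.2% and 11.5% at 1000 UMIs. In astrocytes the shares were 85 of 156 aged (54.5%) and 124 of 387 young nuclei (32.04%), or 22.6% and 12.7% at 1000 UMIs. The 5 leading precursors held 19.4% of the UMIs of the group in aged and 13.5% in young nuclei, or 32.2% and 17.9% without Ifi27. Of these, 1 aged precursor nucleus held 9 of the 40 Rnf213 UMIs and 8 of the 38 Samd9l UMIs. Without each gene's highest nucleus in each library the precursor ratio was 2.67 for Rnf213 and 2.97 for Samd9l. In neurons thinned to 1000 UMIs the share with at least 1 gene was 4.87% aged and 4.78% young, and in oligodendrocytes it was 12.2% aged and 10.4% young.

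**Figure D3:**
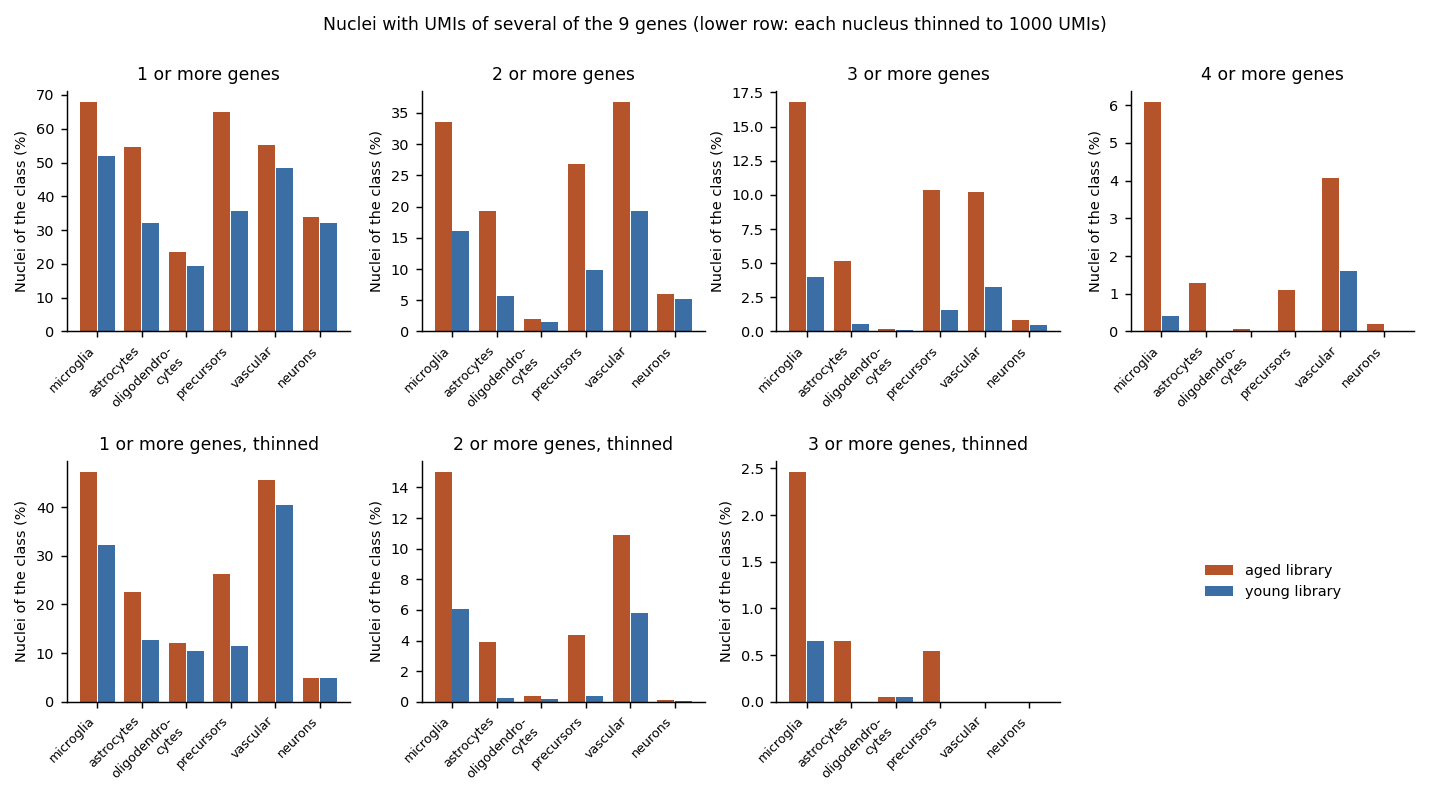
Share of nuclei (%) in 6 cell classes with UMIs of at least 1, 2, 3 or 4 different genes of the 9 (upper row), and of at least 1, 2 or 3 after every nucleus was thinned to 1000 UMIs (lower row), for the aged library (left bar) and the young library (right bar). Thinned shares of aged microglia, astrocytes and precursors with at least 1 gene (47.2%, 22.6% and 26.2%) lie above the young ones (32.2%, 12.7% and 11.5%), and those of neurons are alike at 4.87% and 4.78%; axes differ between panels and start at 0.

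A few nuclei held many interferon-stimulated genes at once. Among 73 such genes outside the 9, 6 of 8229 aged and 3 of 9948 young nuclei held UMIs of 20 or more, a limit chosen after the values were seen. In the aged library these were 2 microglia, 2 nuclei of the border macrophage cluster, 1 precursor and 1 neuron. In the young library they were 1 microglial nucleus and 2 fibroblasts. Every one of the 9 nuclei held 5 to 7 of the 9 genes. The aged microglial nucleus with most UMIs of the group, 23, held 6 of the 31 Samd9l UMIs, and beside 44 UMIs of 9 of 10 microglial markers it had 24 UMIs of 6 of 10 T or NK cell markers. Without the leading microglial nucleus of each library the Samd9l ratio was 6.27. The aged neuron belonged to the sub-cluster led by Gal, Nts and Esr1 and held 28 UMIs of the group in 8900 UMIs, with 9 of Rnf213, 6 of Stat2, 5 of Samd9l and 4 of Ifi27. It also had 75 UMIs of 26 other interferon-stimulated genes, with 12 of the helicase gene Ddx60 and 9 of Eif2ak2, the double-stranded RNA-dependent kinase, where the median aged neuron had 2. The aged precursor held 25 UMIs of 7 of the genes and 69 UMIs of 26 others, with 11 of Herc6, a ligase for Isg15 in mice, where the median was 1. It had UMIs of 8 of 9 precursor markers. The largest count in the nuclei kept was in a young fibroblast with 45 UMIs of the group in 8034 UMIs, 18 of them Rnf213 and 12 Sp100, beside 115 UMIs of 37 other interferon-stimulated genes. It lay in a cluster of 32 young and 0 aged fibroblasts. An aged nucleus in the border macrophage cluster, with 17 UMIs of the group, held UMIs of 9 of 10 T or NK cell markers and 16 UMIs of the chemokine gene Ccl5, which goes against its cluster's name. The young leading nucleus of that cluster had 23 UMIs of 3 of those markers and, apart from them, 14 UMIs of Ccl5. Both nuclei had UMIs of 0 of 8 border macrophage markers.

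**Figure D4:**
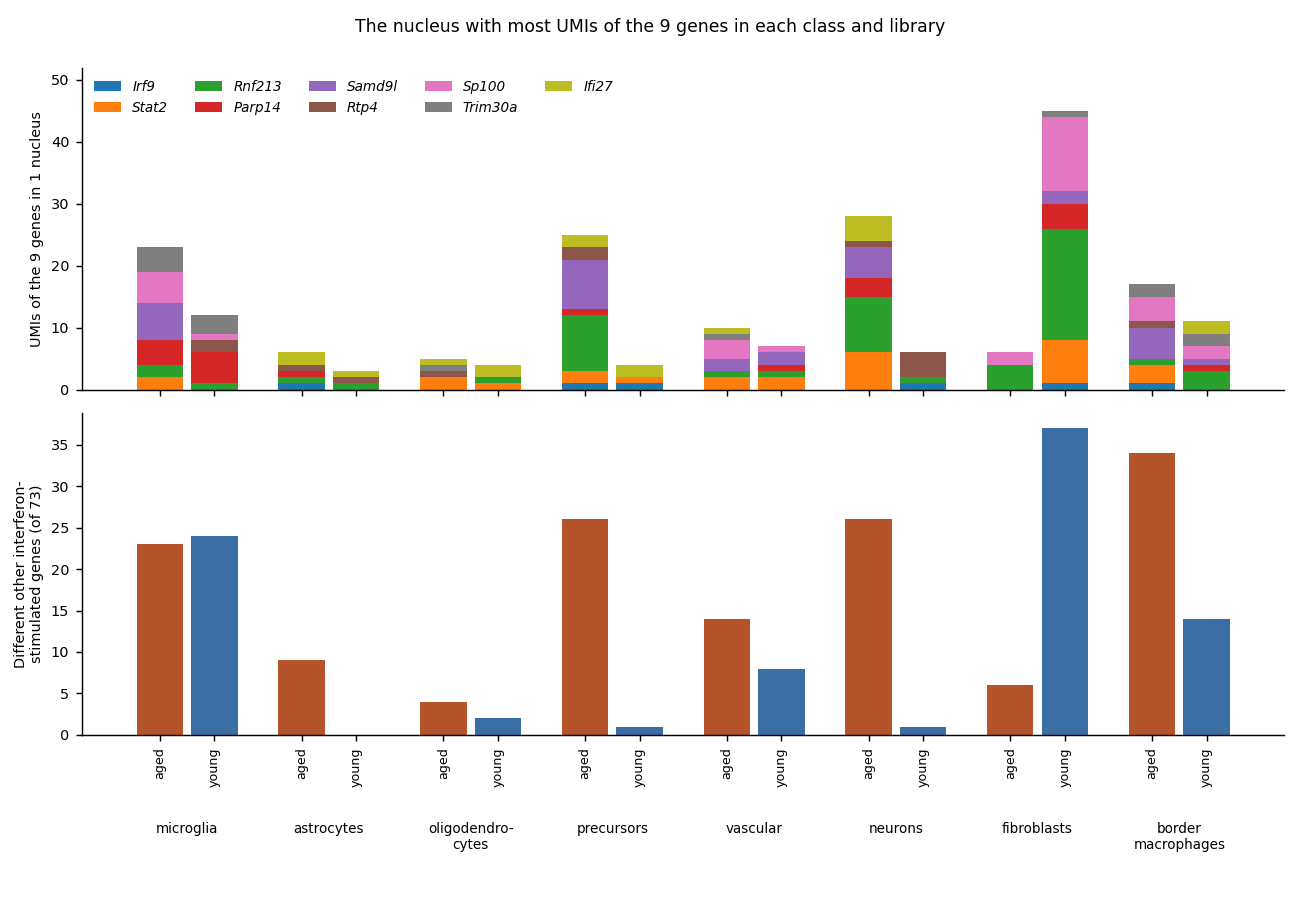
The nucleus with most UMIs of the 9 genes in each of 8 classes, aged library left and young library right in each pair: UMIs by gene (upper panel) and number of different other interferon-stimulated genes detected, of 73 (lower panel). The aged precursor and aged neuron hold 25 and 28 UMIs and 26 other genes each, while the young nuclei of those classes hold 4 and 6 UMIs and 1 other gene each; the young fibroblast holds 45 UMIs and 37 other genes.

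In 25 neuron sub-clusters with 20 or more nuclei in each library, the summed ratio ran from 0.588 to 1.60 with a median of 0.961, and 11 were higher and 14 lower in the aged library. Over both libraries, the highest summed levels were 92.2 CPM in the sub-cluster led by Slc5a7, Chat and Prima1, genes of acetylcholine neurons, 76.8 CPM in that led by Kcnmb2, Ubash3b and Fign, and 67.9 CPM in that led by Sst, Npy and Nos1. The lowest were 38.4 CPM in the sub-cluster led by Drd2, Adora2a and Penk, 38.4 CPM in that led by Impg1, Ust and Sh3rf2, and 42.1 CPM in that led by Foxp2, Tshz1 and Sema5b. The 3 highest had overlapping intervals, and so did the 3 lowest. By library, the level was 82.7 CPM aged and 99.02 CPM young in the sub-cluster led by Slc5a7, 71.9 and 80.3 CPM in that led by Kcnmb2 and 51.4 and 82.7 CPM in that led by Sst. The order was thus not the same in each library, since in the aged library the sub-cluster led by Sst lay below those led by Gal (75.2 CPM), Il31ra (71.5 CPM), Egfr (66.4 CPM) and Vip (65.7 CPM). The ratio's interval lay above 1 in 2 sub-clusters and below 1 in 1. The sub-cluster led by Gal, Nts and Esr1 had 191 aged and 134 young UMIs, 75.2 CPM against 48.4 CPM (ratio 1.55, 1.24 to 1.95), and 1.36 without its leading nucleus in each library. The glutamatergic sub-cluster led by Il31ra, Tcf7l2 and Samd3 had 129 aged and 108 young UMIs, 71.5 CPM against 44.8 CPM (ratio 1.60, 1.23 to 2.08), and 1.57 without its leading nuclei. In the sub-cluster led by Pax6, Sel1l3 and Tcf4 there were 30 aged and 81 young UMIs, 34.6 CPM against 58.9 CPM (ratio 0.588, 0.374 to 0.905). By gene, Irf9 was lower in the aged library in 19 of the 25 sub-clusters and Stat2 in 21. Ifi27 and Trim30a were each higher in 18, but over all neurons both lay below the droplets, so no expression is read from them. The summed levels include both genes. In the sub-cluster led by Gal, Ifi27 was 20.1 CPM aged and 8.68 CPM young. It was 12.2 and 6.22 CPM in that led by Il31ra and 9.24 and 13.8 CPM in that led by Pax6.

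**Figure D5:**
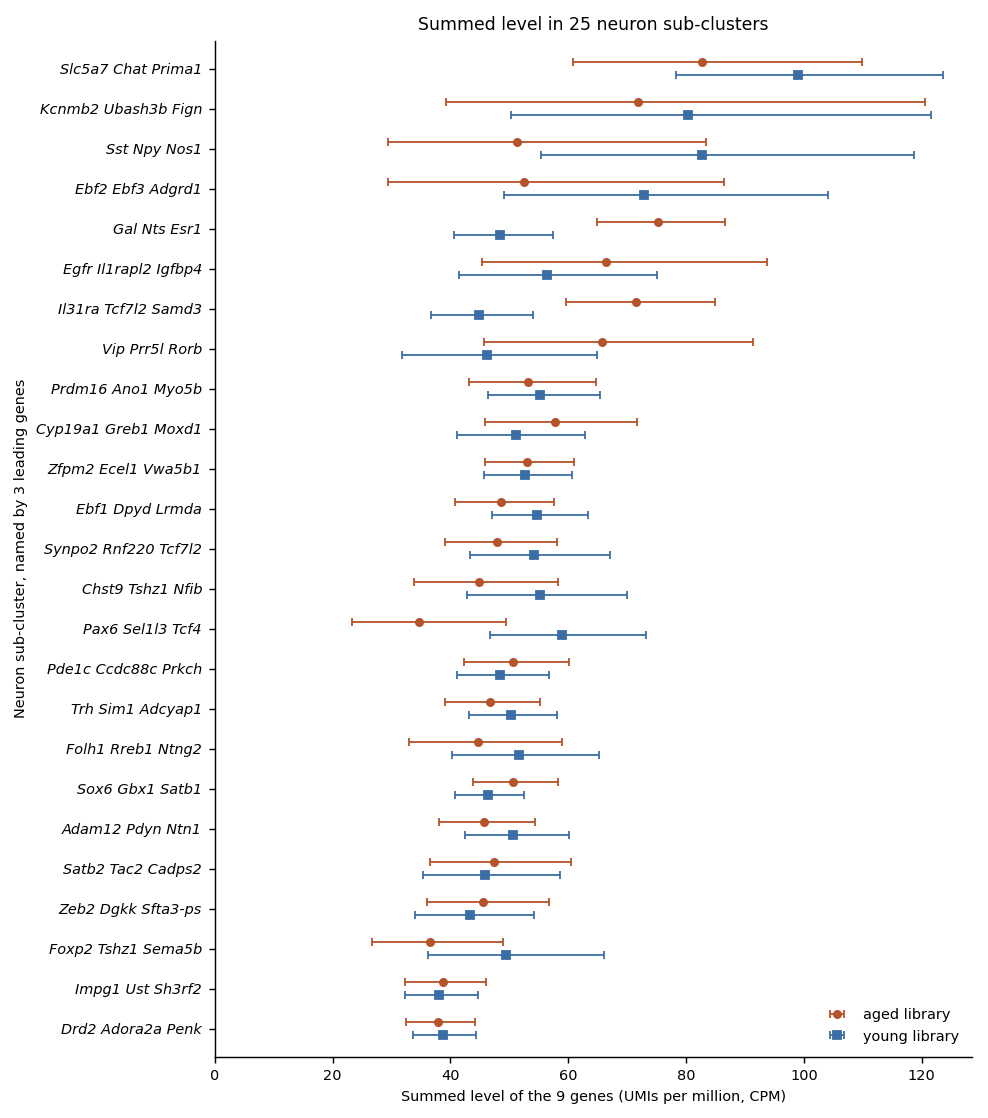
Summed level of the 9 genes (CPM) in 25 neuron sub-clusters of the aged library (circles, upper of each pair) and the young library (squares, lower), ordered by the level over both libraries, with exact Poisson 95% intervals for counting error. The intervals of the libraries are apart in the sub-clusters led by Gal, Nts and Esr1 (75.2 and 48.4 CPM) and by Il31ra, Tcf7l2 and Samd3 (71.5 and 44.8 CPM).

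The rest of the pathway was read by role, each count beside the share of all genes of the class. Of 14 genes that encode interferons themselves, 0 reached 10 UMIs in any of the 6 classes. Among 9 genes for receptors and kinases, 8 were measured in microglia and 0 of them were higher or lower. Ifnar1, a chain of the type I receptor, had 55 aged and 66 young UMIs there (ratio 0.834, 0.572 to 1.21), Ifngr1, a chain of the type II receptor, 338 and 392 (0.863, 0.744 to 1.00) and Jak2 60 and 46 (1.31, 0.874 to 1.96). In neurons 9 were measured and 0 passed the threshold in either direction, with Ifngr1 at 1.15, Ifngr2 at 1.12 and Ifnar2 at 1.09, all 3 at levels below those of the droplets in both libraries, so that no expression is read from them. In precursors 3 of 8 (Ifngr1, Ifngr2 and Il10rb) were higher, beside 13.2% of all genes. In astrocytes 1 of 8 was higher and 1 lower, counts near the 16.7% and 12.2% of all genes. The lower one was Tyk2 with 6 aged and 22 young UMIs (ratio 0.570, 0.189 to 1.45), while Ifnar2 stood at 1.45 (0.959 to 2.17). In oligodendrocytes 1 of 8 was higher, beside 12.6% of all genes, and this was Ifngr2 with 50 aged and 29 young UMIs (ratio 1.85, 1.15 to 3.04), at a level below that of the droplets.

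Among 8 signal transducers and interferon regulatory factors, 2 of 8 measured in microglia were higher and 1 was lower (Irf3), near the 15.9% higher and 9.87% lower of all genes. Irf3, the factor that induces interferon genes after nucleic acid sensing, had 38 aged and 64 young UMIs, 40.6 CPM against 68.3 CPM (ratio 0.594, 0.387 to 0.901). In neurons 1 of 8 was higher (Irf7) and 1 lower (Irf5), beside 6.48% and 9.52% of all genes. Irf3 there had 792 aged and 1382 young UMIs (ratio 0.687, 0.628 to 0.750). In oligodendrocytes 1 of 5 was higher (Irf1) and 0 lower, beside 12.6% and 6.36%. Stat3 there had 225 aged and 163 young UMIs (ratio 1.48, 1.21 to 1.83) and Irf2 367 and 470 (0.840, 0.730 to 0.964).

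Of 13 nucleic acid sensors and adaptors in the files, 11 were measured in microglia, 2 of them higher and 1 lower, near the 15.9% and 9.87% of all genes. Ifih1, the sensor of long double-stranded RNA also called MDA5, had 36 aged and 16 young UMIs (ratio 2.25, 1.22 to 4.35), while Mavs, its adaptor, had 21 and 34 (0.618, 0.341 to 1.10). Tmem173, which encodes the DNA-sensing adaptor STING, had 88 aged and 132 young UMIs (ratio 0.667, 0.503 to 0.880), a value that stops just short of the threshold. In neurons 2 of 12 were higher and 3 lower, beside 6.48% and 9.52% of all genes. There Aim2, a DNA sensor of the inflammasome, had 1052 aged and 1638 young UMIs (ratio 0.769, 0.711 to 0.832). In oligodendrocytes, by contrast, Aim2 had 106 aged and 77 young UMIs (ratio 1.48, 1.09 to 2.01). Negative regulators, 14 genes, were higher in 2 and lower in 0 of 12 measured in microglia, beside 15.9% and 9.87% of all genes. Usp18, which strips Isg15 from proteins and blocks the receptor, had 17 aged and 5 young UMIs there (ratio 3.40, 1.20 to 11.8), and Rnaseh2b had 20 and 10 (2.0, 0.894 to 4.79), at levels near those of the droplets. In astrocytes 1 of 9 was higher and 4 lower, beside 16.7% and 12.2% of all genes. Ptpn11 was at 1.79 (1.15 to 2.77), with levels below those of the droplets in both libraries, and Ptpn1, a phosphatase, at 0.573 (0.314 to 0.993). Rnaseh2b was lower in oligodendrocytes, with 50 aged and 92 young UMIs (ratio 0.584, 0.406 to 0.833). Its aged level there, 12.2 CPM, lay below the droplets at 17.8 CPM.

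Of the 73 other interferon-stimulated genes, in microglia 18 of 47 measured were higher and 1 lower, beside 15.9% and 9.87% of all genes, with a median log2 ratio of 0.31 beside 0.05 over all genes of the class. Ifi207, of the DNA-binding PYHIN family, had 23 aged and 2 young UMIs, Ifi27l2a 22 and 2, and Oasl2, of the oligoadenylate synthetase family, 18 and 2. The lower bounds of their ratios were 2.84, 2.71 and 2.16. Young microglial Ifi27l2a, at 2.13 CPM, lay below the droplets at 9.69 CPM. In astrocytes 14 of 28 were higher and 5 lower, beside 16.7% and 12.2% of all genes (median log2 ratio 0.38, beside 0.05). In precursors 10 of 18 were higher and 1 lower, beside 13.2% and 12.7% (0.51, beside 0.02). In oligodendrocytes 11 of 22 were higher and 1 lower, beside 12.6% and 6.36% (0.18, beside 0.08), led by Tor3a with 25 aged and 5 young UMIs (ratio 5.38, 2.02 to 18.0) and Nmi, a Stat-interacting protein, with 58 and 25 (2.49, 1.54 to 4.16). Young oligodendrocyte Tor3a, at 1.14 CPM, lay below the droplets at 4.43 CPM. In vascular cells 3 of 12 were higher and 2 lower, beside 24.3% and 22.9% of all genes (0.17, beside 0.08). In neurons 23 of 58 were higher and 8 lower, beside 6.48% and 9.52% (0.03, beside 0.01). Eif2ak2 there had 161 aged and 104 young UMIs (ratio 1.85, 1.44 to 2.40). Its young level, 1.86 CPM, lay below the droplets at 3.09 CPM. Tor3a, higher in aged oligodendrocytes, had 317 aged and 530 young UMIs in neurons (0.717, 0.621 to 0.825).

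Fibroblasts and border macrophages, which lie in the meninges and around vessels, were few. Fibroblasts (17 aged and 95 young nuclei) held the 9 genes at 341 CPM in the aged and 554 CPM in the young library (ratio 0.616, 0.378 to 0.958), with 0 genes higher and 5 lower, where 22.4% of genes were higher and 27.8% lower. In the fibroblast cluster found in both libraries (17 aged and 63 young nuclei) the levels were 341 CPM aged and 433 CPM young (ratio 0.789, 0.465 to 1.29), with Stat2 higher and Samd9l, Ifi27, Sp100 and Parp14 lower, where 22.2% of genes were higher and 29.8% lower. The border macrophage cluster (14 aged and 24 young nuclei) stood at 1799 CPM aged and 1211 CPM young, above microglia in both libraries. It had 49 aged and 51 young UMIs (ratio 1.49, 0.983 to 2.24), and 79.6% of the aged and 66.7% of the young UMIs came from 5 nuclei. Without these the ratio was 1.19, and the leading nucleus of each library had T or NK cell markers and none of border macrophages, so the values describe the cluster rather than that cell type. There Rnf213, Samd9l and Sp100 were higher and Parp14 lower, where 27.7% of genes were higher and 31.7% lower.

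Among 15443 other genes with 200 or more UMIs, the 5 whose levels over the 12 combinations of class and library were most like the mean of the 9 genes were H2-K1 (Pearson r = 0.96), Rbbp6 (0.96), Zbtb22 (0.93), Tm9sf1 (0.93) and Ifnar2 (0.92). These r values describe 12 points that share 2 libraries and their depths. H2-K1 encodes a heavy chain of MHC class I, the antigen-presenting complex, and was 311 CPM in aged and 129 CPM in young microglia, against 3.16 CPM in aged and 1.45 CPM in young neurons. Ifnar2, the other chain of the type I interferon receptor, was 256 CPM in aged and 228 CPM in young microglia, 230 CPM in aged and 119 CPM in young vascular cells, and 28.8 CPM in aged and 26.5 CPM in young neurons.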

How the data were processed

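Each library's deposited file holds UMI counts of every gene in every barcode, neither filtered nor normalised; per the file headers Cell Ranger 4 made it. Together these are 79107368 aged and 87520038 young UMIs. No source used here gives the genome build or says whether introns or strand entered the counting. Per the labels' protocols, nuclei were cleared of myelin with beads and sorted on DAPI.

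Barcodes with 500 or more genes and at most 5% mitochondrial UMIs were kept (8597 aged and 10437 young), and Scrublet, as run per library in scanpy 1.11.5, marked 368 (4.28%) and 489 (4.69%), which were left out. Both libraries were clustered together (2000 variable genes without interferon lists, 30 components, 15 neighbours, Leiden resolution 1) and named from marker lists, so names are rebuilt here. UMIs were summed per library and class. CPM has exact Poisson, shares Clopper-Pearson and ratios exact conditional binomial 95% intervals (scipy 1.17.1); none covers differences between mice or libraries. The ratio code was tested on simulated data. Log2 ratios add 5 CPM. Near-empty droplets were barcodes ranked 20001 to 60000 by UMIs. Alternatives covered nucleus filters, scaling, thinning, thresholds, leading nuclei and clustering.

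The members, lists and rules were chosen with earlier results of these data known. Besides the members, the genes named are the 3 with the largest absolute log2 ratio per pathway list (20 or more UMIs) in microglia, astrocytes, oligodendrocytes and neurons, the 5 most like the members, and, chosen after their values were seen, genes that led single nuclei or are listed as counts of 5 or fewer. Of the listed genes, 3 sensors and 4 stimulated genes were not analysed here.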

Additional observations from a re-analysis of the deposited data

Results flagged for a closer look

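Irf9 and Stat2 stood on opposite sides of 1 in different classes, with intervals that excluded 1. The aged-to-young CPM ratio of Irf9 was 2.04 in microglia, 2.21 in astrocytes and 3.14 in oligodendrocyte precursors, against 0.778 in neurons. For Stat2 it was 1.91 in astrocytes, against 0.650 in oligodendrocytes and 0.871 in neurons. With 1 library per age, the difference between classes was not tested.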

How the results depend on the processing

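Of 91 recomputed counts of higher genes, 76 stayed within 1.5 times the reported count. Oligodendrocytes moved most: instead of 2 higher genes there were 4 with a 1% mitochondrial limit, 4 with UMIs per nucleus, 4 at the lower fold threshold, 1 without the 5 leading nuclei of each library, 1 without the leading nucleus, and 0 with median-ratio scaling or with nuclei thinned to 1000 UMIs. Thinning, which leaves fewer UMIs and so fewer genes over 10 UMIs, gave 3 higher genes in astrocytes instead of 7, 3 in precursors instead of 5, 1 in vascular cells instead of 4 and 0 in neurons instead of 4. Vascular cells had 2 without the 5 leading nuclei, 2 at 20 UMIs and 2 without each gene's highest nucleus. Microglia had 8 at the lower fold threshold instead of 5. The alternatives that leave out a single highest nucleus were chosen after seeing the data. Of 610 single ratios, 599 stayed within their interval and 2 turned round, both in thinned astrocytes at few UMIs: Rnf213 at 0.745 and Trim30a at 0.497. In vascular cells the median log2 CPM ratio of genes with 50 or more UMIs was 0.31. Median-ratio scaling lowers every log2 ratio of that class by this much. Relative to CPM, UMIs per nucleus shifted log2 ratios by 0.21 in microglia, 0.25 in astrocytes, 0.11 in precursors, -0.23 in vascular cells and 0.10 in neurons. No paired analysis was possible because each age has 1 library. Low counts limit Sp100 and Parp14 most, each with under 10 UMIs in 3 of the 6 classes.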

Other observations

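By UMIs of the group, 9 aged and 5 young nuclei of all classes held 10 or more, and 3 aged and 2 young nuclei held 20 or more. In microglia, 26 aged and 4 young nuclei held 5 or more.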
